A study of Mus musculus with 6 samples.

Results

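Keratins are the proteins of the intermediate filaments of epithelial cells, and 48 of the 20805 genes named on the array were keratins, each with 1 of its 28853 probe sets. Members were all probe sets whose annotation names a single gene with a symbol made of Krt followed directly by a digit, so keratin-associated proteins and 2 probe sets that name several genes (Krt82 with a pseudogene, and Krt83 with Krt81) were left out. They were divided into 4 luminal keratins (Krt7, Krt8, Krt18 and Krt19), 4 basal keratins (Krt5, Krt14, Krt15 and Krt17) and 40 others, which are known mainly from skin, hair and stratified or gut epithelium.

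The arrays came from 3 IRfl/fl Cre- mice, numbered 1, 2 and 4, and 3 IRfl/fl Cre+ mice, numbered 5, 6 and 7. Both genotypes carry the floxed insulin receptor gene, and the Cre+ mice also carry a Cre recombinase transgene under the BLG (beta-lactoglobulin) promoter, a milk protein promoter whose activity is known from secretory mammary epithelium. Females were mated to CD1 males and their mammary epithelial cells were released with collagenase at day 13.5 of pregnancy. The labels call the cells mammary alveolar cells and give no age, litter, strain background or batch, and nothing in them says which epithelial cells had recombined.

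Keratins work as obligate pairs of a type I and a type II chain. In the mammary gland the inner, luminal layer, from which the milk-secreting alveolar cells arise, is known for the pair Krt8 and Krt18 together with Krt7 and Krt19, and the outer, basal layer, whose contractile myoepithelial cells squeeze out milk, is known for the pair Krt5 and Krt14 together with Krt17. Krt15 is best known from basal cells of stratified epithelium. Keratin filaments are tied to desmosomes between cells and to hemidesmosomes on the basement membrane. Because the cells were measured in bulk, fewer cells of a layer and less keratin RNA per cell cannot be told apart in any value below.

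Promoter windows of 4 keratins are shown because the genes lie in the same type II keratin cluster and their changes, none of which passed the test, differed in value: -0.37 and -0.46 on the log2 scale for the partners Krt8 and Krt18, -0.037 for Krt7 and 0.53 for Krt5. The sequences are RefSeq windows of build GRCm38.p6 from 250 bases before to 50 bases after the annotated start, read 5′ to 3′ on the gene's strand, at chr15:102004293-102004592 on the minus strand for Krt8, chr15:102027966-102028265 on the plus strand for Krt18, chr15:101412153-101412452 on the plus strand for Krt7 and chr15:101712856-101713155 on the minus strand for Krt5. Capitals mark matches on either strand to the TATA box TATAAA and the GC box GGGCGG.
Krt8: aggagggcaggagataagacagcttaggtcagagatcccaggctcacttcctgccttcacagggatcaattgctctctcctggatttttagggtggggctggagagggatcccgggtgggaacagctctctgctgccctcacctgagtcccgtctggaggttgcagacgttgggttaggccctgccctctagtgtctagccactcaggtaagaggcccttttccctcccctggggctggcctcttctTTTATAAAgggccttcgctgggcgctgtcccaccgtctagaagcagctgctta
Krt18: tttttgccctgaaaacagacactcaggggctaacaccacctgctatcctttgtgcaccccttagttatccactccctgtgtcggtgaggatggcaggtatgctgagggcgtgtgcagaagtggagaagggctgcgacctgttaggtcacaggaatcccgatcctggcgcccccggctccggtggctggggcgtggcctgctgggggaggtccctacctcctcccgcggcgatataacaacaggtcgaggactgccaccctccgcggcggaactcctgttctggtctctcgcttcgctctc
Krt7: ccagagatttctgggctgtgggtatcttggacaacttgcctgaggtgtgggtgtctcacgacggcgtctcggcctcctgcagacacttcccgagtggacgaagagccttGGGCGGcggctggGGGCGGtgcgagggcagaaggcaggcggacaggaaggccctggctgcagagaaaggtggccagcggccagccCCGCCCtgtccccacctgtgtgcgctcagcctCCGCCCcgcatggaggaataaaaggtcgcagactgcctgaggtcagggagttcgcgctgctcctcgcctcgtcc
Krt5: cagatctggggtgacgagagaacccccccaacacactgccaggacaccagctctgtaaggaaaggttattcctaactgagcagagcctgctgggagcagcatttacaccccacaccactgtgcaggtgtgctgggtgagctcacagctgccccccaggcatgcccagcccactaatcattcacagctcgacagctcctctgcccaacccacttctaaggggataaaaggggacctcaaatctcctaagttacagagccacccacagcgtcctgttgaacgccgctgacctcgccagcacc

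The Krt8 window held TATAAA on both strands in overlapping letters at its annotated start. The Krt7 window held 4 GC boxes, while the windows of Krt18 and Krt5 held neither motif. The AP-1 motif TGANTCA and the STAT motif TTCNNNGAA were in none of the 4 windows. Windows were at hand for 34 of the 48 keratins, and 19 of their 35 windows held TATAAA, which 13.6% of all 32851 RefSeq windows of this length hold. GGGCGG was in 2 of the 35 windows, against 35.7% of all windows. A match is a description of letters and no evidence of binding. In the order of coding genes Krt8 and Krt18 are direct neighbours, as are Krt15 and Krt19, and only Krt16 lies between Krt14 and Krt17.

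Values are RMA intensities on a linear scale, as deposited, and changes are Cre+ minus Cre- on the log2 scale with the standard error (SE) of the fit. Probe sets differ in brightness for reasons other than RNA amount, so each gene was compared only with itself across mice. Of the 48 keratins, 26 were bright enough to be tested, all 8 luminal and basal keratins among them. A call means an adjusted p under 0.05 in limma, with Benjamini-Hochberg adjustment over all 16921 tested probe sets, of which 4.17% were called, 2.03% higher and 2.14% lower in Cre+ cells. At an unadjusted limma p under 0.05, 1721 of the 16921 were higher and 1663 lower. Among the 26 tested keratins 1 was called, Krt17, which is 3.85% of them and close to the share of all probe sets. The groups did not overlap for 5 of the 26 (19.2%), against 25.7% of all tested probe sets.

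**Figure D1:**
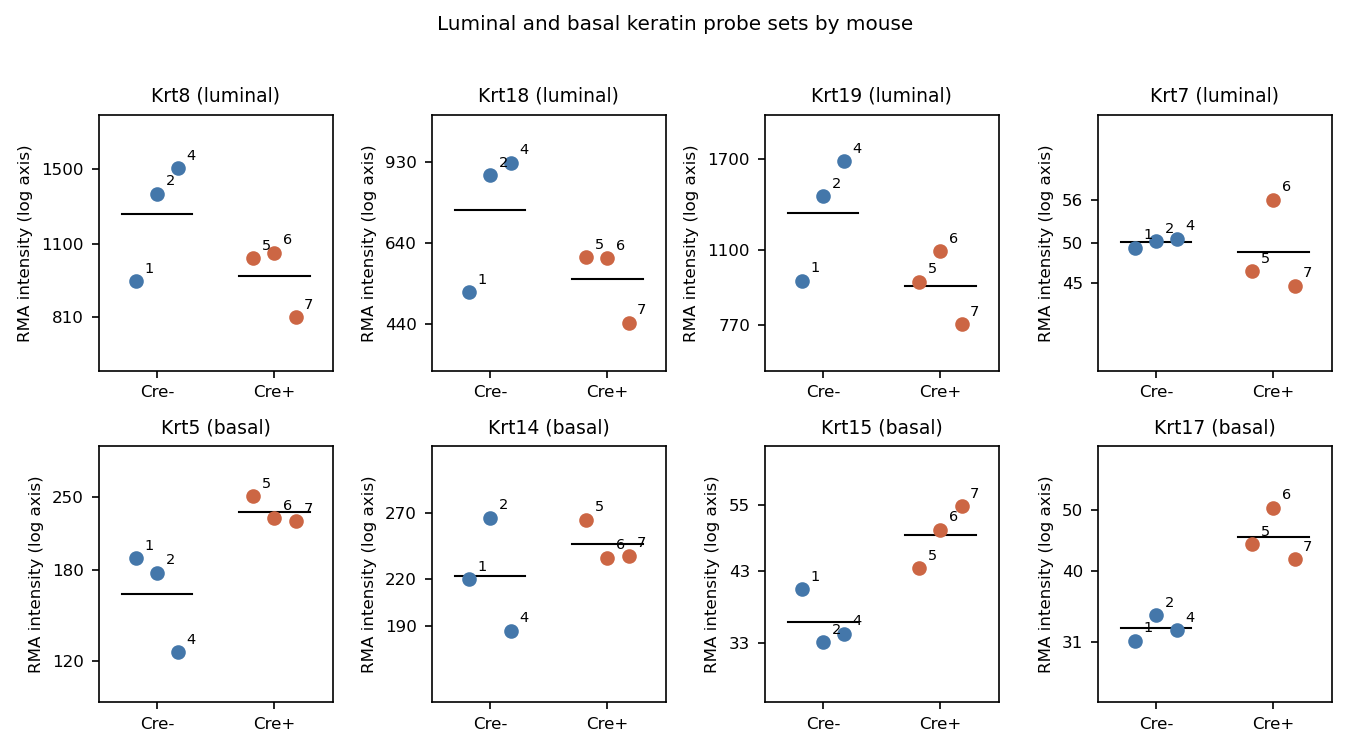
RMA intensity (vertical log axis, a different range in each panel) of the 8 luminal and basal keratins in each mouse, numbered as in the labels, with a line at the geometric mean of each group of 3. Cre+ 7 is the lowest mouse for Krt7, Krt8, Krt18 and Krt19, Cre- 1 is the lowest Cre- mouse for Krt8, Krt18 and Krt19, and all Cre+ points lie above all Cre- points for Krt5, Krt15 and Krt17.

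Basal keratins had higher values in Cre+ cells on average, with overlapping groups for Krt14, and only Krt17 was called. Krt17, a basal keratin also known from wounded and regenerating epithelium, had intensities of 31.1, 34.2 and 32.4 in the Cre- mice 1, 2 and 4 and of 44.2, 50.4 and 41.8 in the Cre+ mice 5, 6 and 7. All Cre+ values lay above all Cre- values. The rise was 0.48 on the log2 scale (SE 0.09, n = 3 and 3), 1.39-fold, with limma adjusted p = 0.0315. With 1 mouse left out the adjusted p lay between 0.0487, without Cre+ 7, and 0.0990, without Cre+ 5, so that the call was kept in 1 of 6 omissions. In the authors' deposited table its ratio of Cre+ to Cre- was 1.40 with p = 0.0088. That p is unadjusted and matches an equal-variance test on linear intensities, which gave an adjusted p of 0.168. No intensity on the array lay below 18.7, and when 16 was taken off every intensity before log2 the change of Krt17 became 0.82.

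Krt15 read 40.3, 33.1 and 34.1 in the Cre- mice and 43.5, 50.2 and 54.8 in the Cre+ mice. The groups did not overlap, with Cre- 1 and Cre+ 5 closest to each other. Its change was 0.46 (SE 0.11), 1.38-fold, which did not pass (limma adjusted p = 0.0676; unadjusted p = 0.00389). It passed when Cre- 1 was left out (0.55, adjusted p = 0.0387), when both Cre- 1 and Cre+ 7 were (adjusted p = 0.0387) and with array weights (adjusted p = 0.0358), and with 16 taken off before log2 its change was 0.76.

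Krt5, the type II chain of the basal pair, read 190.1, 178 and 125 in the Cre- mice and 250.4, 227 and 224 in the Cre+ mice. Again the groups did not overlap, and Cre- 4 lay well below the other Cre- mice. The change of 0.53 (SE 0.16, 95% interval 0.17 to 0.89), 1.44-fold, was the largest of any keratin but did not pass (limma adjusted p = 0.108). Without Cre- 4 it was 0.34, and in no single omission did it pass, with adjusted p between 0.0542 and 0.275. The authors' deposited table gives a ratio of 1.42 with unadjusted p = 0.0333. Its unadjusted p was 0.0261 for Krt15 and 0.447 for Krt14. For the luminal keratins Krt8, Krt18, Krt19 and Krt7 it was 0.184, 0.186, 0.151 and 0.786.

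Krt14, the type I partner of Krt5, read 220, 266 and 187 in the Cre- mice and 264, 235 and 236 in the Cre+ mice. Here the groups overlapped, with Cre- 2 the highest of all 6 mice. The change was 0.14 (SE 0.13, 95% interval -0.16 to 0.44; limma adjusted p = 0.625), and it lay between 0.018 and 0.27 with 1 mouse left out. Among all tested probe sets 12.9% had every Cre+ array above every Cre- array, and 3 of the 4 basal keratins did. With 3 against 3 mice the smallest exact permutation p that such a separation can give is 0.1.

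Luminal keratins had lower values in Cre+ cells on average, with overlapping groups. Krt8, the type II chain of the luminal pair, read 942, 1355 and 1508 in the Cre- mice and 1035, 1059.9 and 808 in the Cre+ mice. Cre- 1 lay below Cre+ 5 and Cre+ 6, and Cre+ 7 was the lowest of all. The change was -0.37 (SE 0.18, 95% interval -0.80 to 0.053), 1.29-fold lower, and did not pass (limma adjusted p = 0.315).

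Krt18, its type I partner, read 510.3, 877 and 928 in the Cre- mice and 599, 596 and 443 in the Cre+ mice. The same mice stood low as for Krt8. Its change was -0.46 (SE 0.23, 95% interval -1.002 to 0.074; limma adjusted p = 0.322).

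Krt19, a small type I keratin of simple epithelium, read 951, 1426 and 1681 in the Cre- mice and 948, 1097 and 774 in the Cre+ mice. Its change of -0.50 (SE 0.21, 95% interval -0.996 to -0.0059), 1.42-fold lower, was the largest fall in value among keratins and did not pass (unadjusted p = 0.0479; limma adjusted p = 0.244). Krt19 and its genomic neighbour Krt15 thus had changes of opposite sign.

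Krt7, a type II keratin of glandular epithelium, had a smaller difference in value than the other luminal keratins. It read 49.4, 50.3 and 50.6 in the Cre- mice, with no low value in Cre- 1, and 46.4, 56.0 and 44.7 in the Cre+ mice. The Cre+ values lay on both sides of the Cre- values. The change was -0.037 (SE 0.10, 95% interval -0.27 to 0.20; limma adjusted p = 0.892), and its sign turned when Cre+ 7 was left out (0.027), alone or with Cre- 1 (0.017).

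Whether luminal keratins passed depended on Cre- 1. Without it, Krt18 (-0.74, limma adjusted p = 0.0326) and Krt19 (-0.74, adjusted p = 0.0394) passed and Krt8 (-0.57, adjusted p = 0.0516) did not. With Cre- 1 and Cre+ 7 both left out, all 3 passed, with changes of -0.45 for Krt8 (adjusted p = 0.0351), -0.59 for Krt18 (adjusted p = 0.0128) and -0.60 for Krt19 (adjusted p = 0.0297). Each was the lowest mouse of its group for these 3 genes, so leaving both out lowered the spread within the groups. No other pair of mice was left out, so these passes are no independent evidence of a fall. Among Cre- mice Krt8 ranged over 0.68 log2 units, Krt18 over 0.86 and Krt19 over 0.82, each more than the difference between the group means. Cre- 1 and Cre+ 7 were also the mice with the highest mean log2 level of 12 T and B cell markers, 7.07 and 6.36, against 4.82 to 5.49 in the other 4 mice. None of these markers was called in limma (0 also at an unadjusted p under 0.05). Among all 16921 tested probe sets, 1721 were higher and 1663 lower at that unadjusted p. Cre- 1 and Cre+ 7 were the highest mice for 10 endothelial markers too (6.25 and 6.45, against 5.59 to 6.08). They were also highest, by little, for 10 macrophage markers (6.465 and 6.593, against 5.754 to 6.463), but not for fibroblast or adipocyte markers. These mice also stood apart on the second principal component of all tested probe sets, which held 33.6% of the variance. Their scores were 21.1 and 13.7, against -14.6 to -3.06 in the rest. The part of lymphocyte or other non-epithelial content in the luminal values was not tested.

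**Figure D2:**
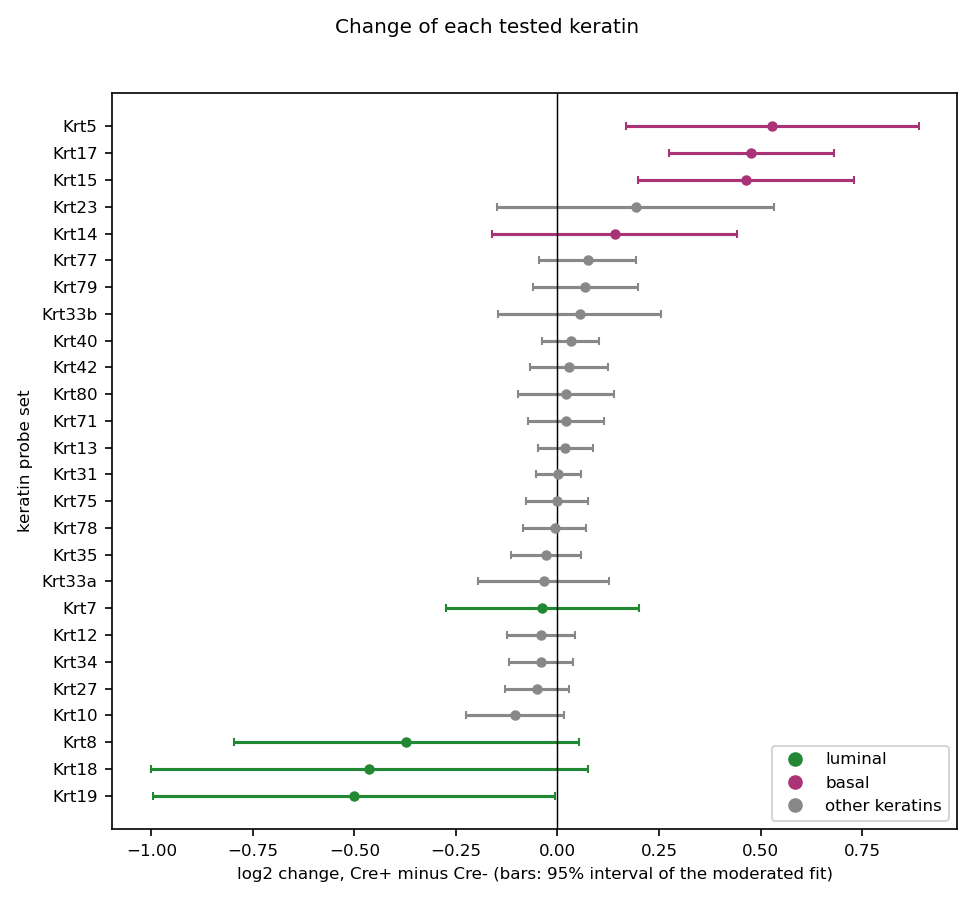
Log2 change (Cre+ minus Cre-, horizontal axis) with its 95% interval for each of the 26 tested keratins, ordered by change and coloured by group. The intervals of Krt5, Krt15 and Krt17 lie above 0 and that of Krt19 just below 0, while those of the 18 keratins outside both lineages all include 0.

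The group means of the lineages differed in opposite directions, with overlapping mice for the luminal keratins and no test. The mean log2 level of the 4 luminal keratins was 8.60, 9.08 and 9.20 in the Cre- mice and 8.67, 8.79 and 8.38 in the Cre+ mice, a difference of -0.34. For the 4 basal keratins it was 6.41, 6.42 and 6.16 in the Cre- mice and 6.73, 6.75 and 6.71 in the Cre+ mice, a difference of 0.40. In this mean the Cre+ mice were close to each other, with an SD of 0.02 against 0.15 in the Cre- mice. All of them lay above the Cre- mice. Single genes did not all share this closeness, since the SD was larger in Cre+ than in Cre- mice for Krt15 (0.168 against 0.152) and Krt17 (0.138 against 0.067). It was smaller in Cre+ mice for Krt5 (0.089 against 0.326) and Krt14 (0.096 against 0.253). Median changes were -0.42 for luminal and 0.47 for basal keratins, against 0.0037 over all tested probe sets, whose quartiles were -0.084 and 0.082. The luminal median was -0.65 without Cre- 1 and -0.27 without Cre- 4.

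Set against the Cre- mean, the luminal minus the basal mean was -0.44, 0.03 and 0.41 in the Cre- mice 1, 2 and 4 and -0.69, -0.59 and -0.96 in the Cre+ mice 5, 6 and 7. Every Cre+ mouse was below every Cre- mouse, with Cre- 1 closest to the Cre+ mice. The difference between the group means was -0.75, and it stayed between -0.97 and -0.54 when any 1 mouse was left out. No p is given for this score, since its members were chosen with earlier results known.

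**Figure D3:**
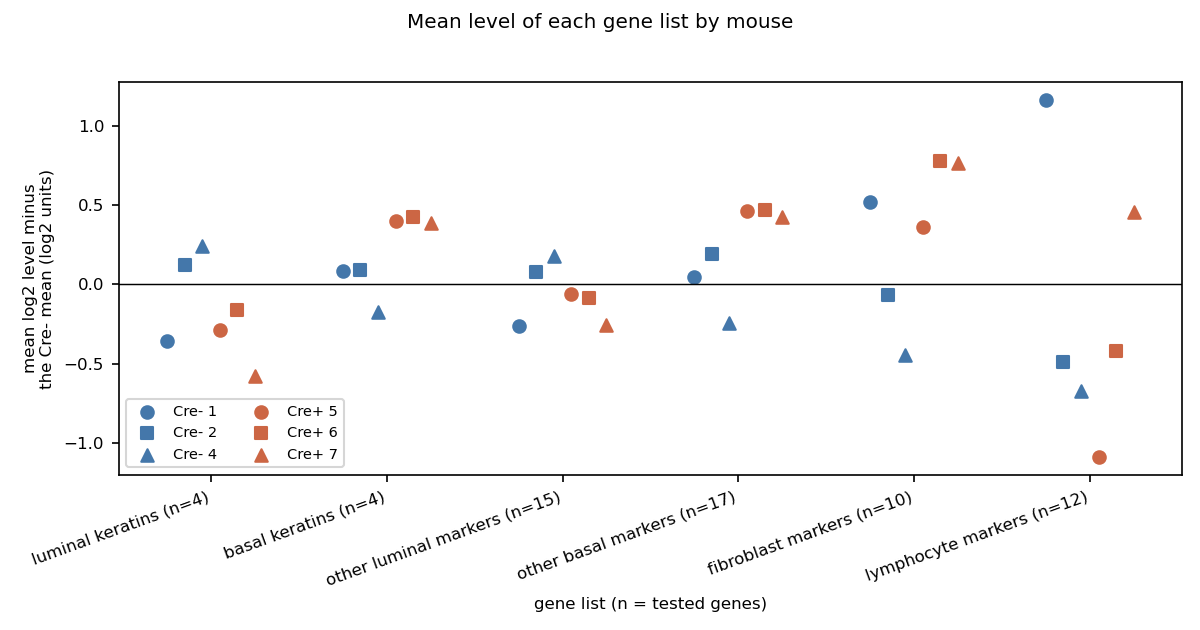
Mean log2 level of each gene list in each mouse minus the mean of the 3 Cre- mice (vertical axis, log2 units), for luminal and basal keratins, other markers of both layers, and fibroblast and lymphocyte markers. All Cre+ mice lie above all Cre- mice for both basal lists, the groups overlap for both luminal lists, and Cre- 1 and Cre+ 7 are the 2 highest mice for lymphocyte markers.

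Filament partners were then compared within each mouse, a comparison of 3 pairs chosen after the values were seen. Set against its Cre- mean, the log2 difference of Krt8 minus Krt18 was 0.15, -0.11 and -0.04 in the Cre- mice and 0.05, 0.09 and 0.13 in the Cre+ mice. The groups overlapped and differed by 0.092 (exact permutation p = 0.4, two-sided, adjusted p = 0.4 over 3 pairs). With 3 against 3 mice no p under 0.1 is possible, so this does not show that the partners changed alike.

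Krt5 minus Krt14 was 0.25, -0.12 and -0.13 in the Cre- mice and 0.38, 0.41 and 0.38 in the Cre+ mice, on the same scale. Krt5 was higher relative to Krt14 in all 3 Cre+ mice than in any Cre- mouse, by 0.39 on average, and the Cre+ mice differed from each other by little (SD 0.02, against 0.21 in Cre- mice). The exact permutation p was 0.1, the smallest possible, and 0.3 adjusted over 3 pairs, so the separation did not pass. Krt7 minus Krt19 had overlapping groups and a difference of 0.46 (exact permutation p = 0.3, adjusted p = 0.4).

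**Figure D4:**
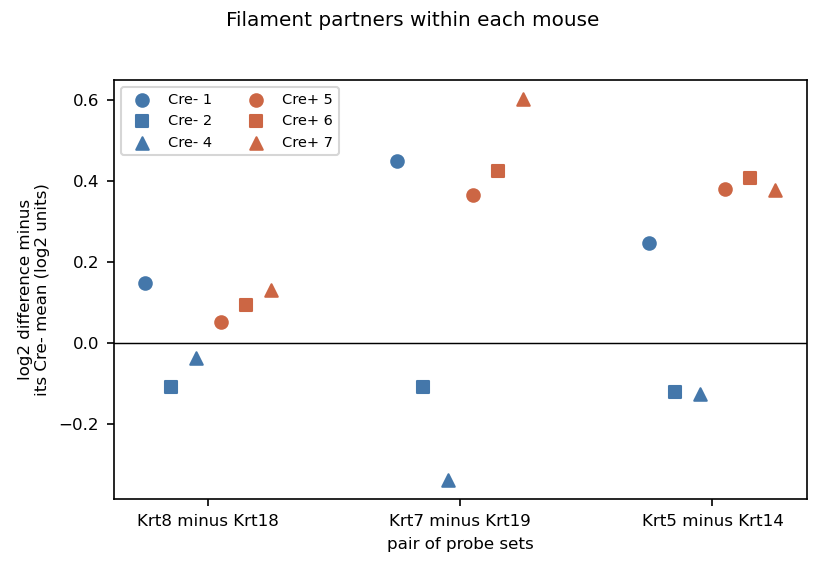
Log2 difference between 2 keratins within each mouse, minus its mean over the Cre- mice (vertical axis, log2 units), for Krt8 and Krt18, Krt7 and Krt19, and Krt5 and Krt14. The Cre+ mice lie above the Cre- mice for Krt5 minus Krt14 and overlap them for the other pairs.

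Of the 40 keratins outside both lineages, 18 were tested and none was called in limma (0 also at an unadjusted p under 0.05). Among all 16921 tested probe sets, 1721 were higher and 1663 lower at that unadjusted p. Changes of the 18 keratins lay between -0.10 and 0.19, with a median of 0.010, and 10 were above and 8 below 0. Krt23, a type I keratin known from gut and other simple epithelium, had the largest change, 0.19 (SE 0.15; limma adjusted p = 0.540). It read 38.3, 45.4 and 38.9 in Cre- mice and 48.6, 55.3 and 37.6 in Cre+ mice, with Cre+ 7 the lowest of all. Krt33b, a hair keratin, read 57.8 to 66.3 over all 6 mice and had a change of 0.055 (SE 0.086).

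Of 8 keratins of epidermal differentiation 5 were tested. Krt10, the type I chain of the suprabasal epidermal pair, read 32.1, 33.3 and 32.3 in Cre- mice and 29.2, 31.5 and 30.1 in Cre+ mice. Its groups did not overlap, but the change was only -0.10 (SE 0.052; limma adjusted p = 0.320). Krt77 had a change of 0.074 (SE 0.051; adjusted p = 0.491). Krt1, the type II partner of Krt10, was below the intensity filter, at 21.3 to 22.1 in all 6 mice, as was Krt2. In all, 2 of the 18 tested keratins outside both lineages, Krt10 and Krt12, the keratin of cornea, had every Cre+ array below every Cre- array, where 12.7% of all tested probe sets did.

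Keratins of mucosa and wounded epidermis were near the bottom of the intensity range. Of 7, only Krt13 was tested, with a change of 0.019 (SE 0.029). Krt16, and Krt6a and Krt6b, which pair with Krt16 or Krt17 in wounded skin, read between 19.7 and 22.3 in every mouse. Krt6a and Krt6b, known type II partners of Krt17, thus gave no value above the filter beside its rise. They are near-identical copies, and shared hybridization was not tested.

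Among 9 keratins of the hair root sheath 3 were tested, and Krt27 had the largest change in value, -0.051 (SE 0.034; limma adjusted p = 0.470). Among 11 hair shaft keratins 6 were tested, with changes from -0.042 to 0.055. Krt42 (0.029, SE 0.041) and the untested Krt222 were in no group. The 22 keratins that were not tested read between 19.7 and 23.0 in every mouse, and their changes ranged from -0.088 for Krt9 to 0.045 for Krt16. At the edge of the filter Krt33a, at a mean log2 intensity of 4.49, was tested and Krt32, at 4.48, was not. Without the filter Krt17 was still the only keratin called. Krt9, a keratin of palm and sole skin, read 22.4, 22.5 and 23.0 in Cre- mice and 21.0, 21.7 and 21.2 in Cre+ mice. The authors' deposited table gives Krt9 a ratio of 0.94 with unadjusted p = 0.0118.

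**Figure D5:**
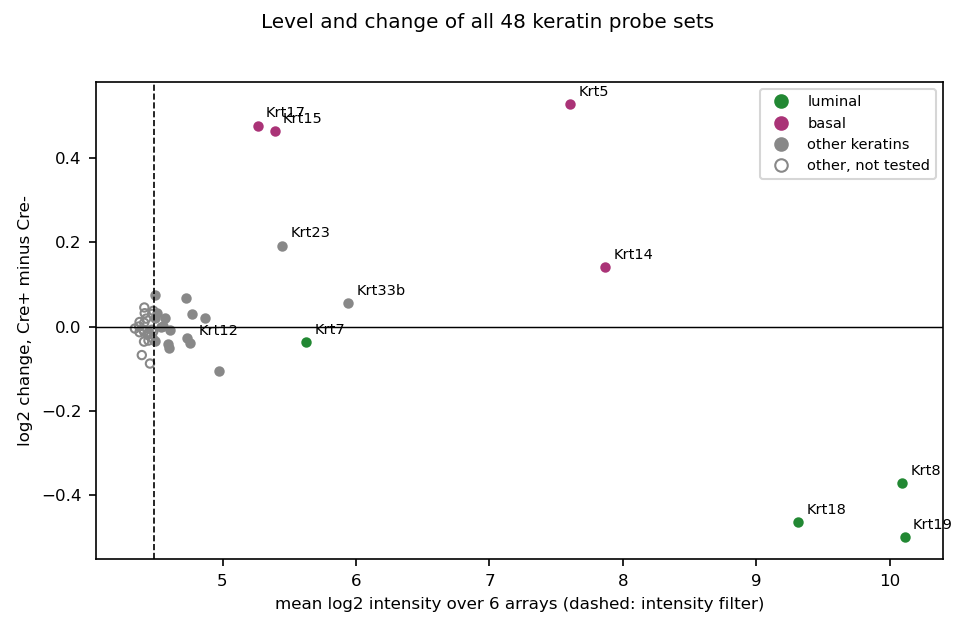
Change in Cre+ cells (vertical axis, log2) against mean log2 intensity over the 6 arrays (horizontal axis) for all 48 keratin probe sets, with the intensity filter dashed and untested keratins as open circles. Luminal keratins other than Krt7 lie at the bright end below 0, basal keratins lie above 0, and the 40 others lie within 0.2 of 0.

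Genes of the structures that hold keratin filaments were read from the same fit. Of 10 tested desmosome genes 2 rose and none fell, where 2.03% of all tested probe sets were called higher and 2.14% lower. Dsp, the gene of desmoplakin, the protein that ties keratin filaments to the desmosome, rose by 0.74 (SE 0.11), 1.67-fold, with limma adjusted p = 0.0190. Its log2 levels were 5.24, 5.55 and 5.29 in Cre- mice and 6.02, 6.22 and 6.07 in Cre+ mice. Perp, which encodes a membrane protein of desmosomes, rose by 0.86 (SE 0.14), 1.81-fold, with adjusted p = 0.0241, from 6.83, 7.16 and 6.82 to 7.99, 7.85 and 7.55. Neither gene's groups overlapped, and each passed in 3 of 6 omissions, with both lost without Cre- 4, Cre+ 5 or Cre+ 6. The other 8 had values of both signs, and the list's median change was -0.02. Without Cre- 1, 1 of the desmosome genes was called lower.

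None of 10 hemidesmosome and plakin genes passed in limma (0 called, 1 higher and 2 lower at an unadjusted p under 0.05), with a median of -0.14. Among all 16921 tested probe sets, 1721 were higher and 1663 lower at that unadjusted p. Plec, the gene of plectin, which links keratin filaments to hemidesmosomes, had the smallest p (-0.23, SE 0.09, adjusted p = 0.187). Of 13 other intermediate filament genes none passed either (0 at an unadjusted p under 0.05), and Synm, the gene of synemin, had the smallest adjusted p (0.25, SE 0.12, adjusted p = 0.296). Vim, the vimentin gene of basal and stromal cells, had a change of 0.62 (adjusted p = 0.363). Of 9 tested genes listed under keratin handling, none passed in limma (0 called, 2 higher and 1 lower at an unadjusted p under 0.05). This list includes Krtcap2 and Krtcap3, which are named for keratinocytes and not for binding keratins. Tchp, the gene of the keratin-binding protein trichoplein, had a change of -0.21 (SE 0.06, adjusted p = 0.0926).

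Markers of both layers other than keratins were set beside them. Of 17 tested basal markers 6 rose and none fell, with a median of 0.60. Of all tested probe sets 2.03% were called higher and 2.14% lower. Trp63, the gene of the transcription factor that specifies basal epithelium, rose by 0.67 (SE 0.12, adjusted p = 0.0267) and Lama3, which encodes a laminin chain of the basement membrane, by 0.66 (SE 0.11, adjusted p = 0.0267). Mylk and Myl9, genes of the contractile apparatus, rose by 0.78 (SE 0.14) and 1.01 (SE 0.20). Lamb3, the gene of another laminin chain, had a change of -0.59 (SE 0.16, adjusted p = 0.0871), named after its value was seen. The number of basal rises was 6 without Cre- 1, 2 without Cre- 2 or Cre- 4, and 0 without Cre+ 5, Cre+ 6 or Cre+ 7. Lamb3 was called lower without Cre- 1, and 1 basal marker was lower with Cre- 1 and Cre+ 7 both left out. Lists and keratins were chosen with results of these data known, so this list is no independent evidence of its direction.

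Of 15 tested luminal markers 2 fell and none rose, with a median of -0.12, where 2.14% of all tested probe sets were called lower. Changes were above 0 for 6 of the 15 and below 0 for 9. Every Cre+ array lay above every Cre- array for 1 of them, Pgr, and below for 3, where 12.9% and 12.7% of all tested probe sets did. Pgr, named after its value was seen, had a change of 0.23 (SE 0.07, limma adjusted p = 0.125). Muc1, the gene of a mucin of the luminal cell surface, fell by 0.56 (SE 0.08, adjusted p = 0.0160) and Elf5, a transcription factor of alveolar cells, by 0.43 (SE 0.09, adjusted p = 0.0462). Muc1 had log2 levels of 8.33, 8.44 and 8.51 in Cre- mice and 7.92, 7.85 and 7.84 in Cre+ mice. Unlike Krt8, Krt18 and Krt19, it was only slightly lower in Cre- 1 than in the other Cre- mice. The list as a whole did not share this. Its mean log2 level was 7.38 in Cre- 1, against 7.72 in Cre- 2 and 7.82 in Cre- 4. In Cre+ 5, Cre+ 6 and Cre+ 7 the list mean was 7.58, 7.56 and 7.39. Cre- 1 and Cre+ 7 were thus the lowest mice of their groups in this mean, as for Krt8, Krt18 and Krt19. The number of falls was 4 without Cre- 1, 5 without Cre- 1 and Cre+ 7, 1 without Cre- 4 or Cre+ 7, and 0 without Cre- 2, Cre+ 5 or Cre+ 6.

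Cells outside the mammary epithelium were represented on the arrays too. Mean log2 levels of 10 fibroblast markers ranged from 5.59 to 6.56 in Cre- mice and from 6.41 to 6.82 in Cre+ mice, and 2 of them, Mfap5 (0.75) and Fn1 (0.98), rose. There were 7 rises without Cre- 1, 1 without Cre+ 7 and 0 with any 1 of the other 4 mice left out. Those of 10 macrophage markers ranged from 5.75 to 6.47 in Cre- mice and from 6.37 to 6.59 in Cre+ mice, and C1qc (0.75) and C1qb (0.68) rose, a number that was 0 to 2 with 1 mouse left out. Beside both lists, 2.03% of all tested probe sets were called higher. For 10 endothelial markers the ranges were 5.59 to 6.25 and 5.99 to 6.45, and for 9 adipocyte markers 5.32 to 5.56 and 5.45 to 6.11, with none called in limma in either list (1 endothelial marker higher, and 4 adipocyte markers higher and 1 lower, at an unadjusted p under 0.05). Among all 16921 tested probe sets, 1721 were higher and 1663 lower at that unadjusted p. The smallest p in the endothelial and the adipocyte list belonged to Emcn (0.50) and Car3 (2.26). With 1 mouse left out 0 endothelial markers were called, and 2 adipocyte markers were higher without Cre+ 5 and 1 without Cre- 1. At an unadjusted limma p under 0.05, however, 10 of the 10 endothelial markers were higher without Cre- 1. In that omission 1685 of all 16921 tested probe sets were higher and 1819 lower. Median changes were 0.69 for fibroblast, 0.26 for macrophage and 0.32 for endothelial markers, and all 10 markers of each of these lists were above 0. For adipocyte markers the median was 0.15, with 7 above and 2 below 0. For lymphocyte markers it was -0.39, with 2 above and 10 below 0. The basal median of 0.60 was thus not larger than that of fibroblast markers. The part of these cell types in the keratin values was not tested. None of these lists holds a keratin. Of 13 suprabasal epidermis markers on the array only 4 were tested, and none was called in limma (1 at an unadjusted p under 0.05, Asprv1, -0.18). The defining markers Lor, Ivl and Krtdap had mean log2 levels of 4.35 to 4.41, below the filter, in both groups.

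The targeted gene was lower in the Cre+ mice. Insr fell by 0.95 (SE 0.15, adjusted p = 0.0231) at the first of its 2 probe sets, with log2 levels of 6.73, 6.70 and 6.93 in Cre- mice and 5.79, 5.57 and 6.15 in Cre+ mice. At the second it fell by 0.52 (SE 0.09, adjusted p = 0.0285). Median intensities of the 6 arrays lay between 28.4 and 29.3. Nothing states that the mice came from separate litters, and p-values measure the spread between these mice.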

How the data were processed

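RNA from 6 mice was hybridized to Affymetrix MoGene 1.0 ST arrays. The deposited intensity values are, per the labels, RMA values over core exons from Expression Console, on a linear scale from 18.7 to 10919. The software version, build and annotation were not given in the sources used here. Both deposited tables held the same intensities. The p-values in the authors' deposited table match an equal-variance test on linear intensities (100% within 2e-04), and its deposited ratio is the Cre+ mean over the Cre- mean (100% within 0.01).

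Intensities were taken to log2. Among the 22984 probe sets that name 1 gene, those whose mean log2 value was under 4.48 (linear 22.4), the level at percentile 30 of the array, were set aside. The remaining 16921 were fitted in limma 3.58.1 (R 4.3.3) by lmFit and a trended eBayes. Tests were two-sided, p-values were adjusted by Benjamini-Hochberg, and the threshold was 0.05. A listed gene with several probe sets was represented by the one with the highest mean. The number of arrays limits the precision.

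Named genes were the 8 lineage keratins, called keratins, the 3 other keratins with the smallest p, the brightest tested keratin of each other group, the called members of each list (at most 4) or else its smallest p, and Insr. Others, among them Krt12, Krt9, Krt1, Vim, Lamb3, Pgr and Lor, were chosen after their values were seen. Members and lists were chosen with earlier results of these data known. Lists covered desmosomes, hemidesmosomes and plakins, other intermediate filaments, keratin handling, luminal and basal markers, and epidermis, fibroblast, adipocyte, lymphocyte, macrophage and endothelial markers. The fit was tested on simulated data. Alternatives were no filter, median centring, no intensity trend, robust variances, 16 taken off before log2, unnamed probe sets kept, array weights, an equal-variance test on linear intensities, and omission of mice.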

Additional observations from a re-analysis of the deposited data

How the results depend on the processing

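Changes of the 8 luminal and basal keratins kept their sign under all 15 alternatives, except that of Krt7, which lay between -0.136 and 0.027 with 1 mouse left out, above 0 without Cre+ 7, and was 0.017 when both Cre- 1 and Cre+ 7 were omitted. With array weights 2 keratins were called higher, with 722 higher and 715 lower probe sets in all, against 344 and 362. With both of these mice omitted 2 keratins were higher and 3 lower. The equal-variance test on linear intensities called 0 probe sets after adjustment (1438 higher and 1423 lower at an unadjusted p under 0.05) and so 0 keratins (3 higher and 1 lower unadjusted). With 16 taken off before log2 the median basal change was 0.67, against 0.47. Taking any constant off enlarges log2 changes, most for dim probe sets. Whether the deposited values hold an added constant is not stated, so 0.67 is no better estimate. With 1 mouse left out, keratins called higher numbered 0 to 1 and lower 0 to 2, and all probe sets called higher numbered 15 to 340 and lower 27 to 441. The Krt17 call was lost without each mouse other than Cre+ 7 and with the equal-variance test (adjusted p = 0.168). Median changes lay between -0.65 and -0.27 for luminal and between 0.39 and 0.50 for basal keratins with 1 mouse left out. No paired analysis was possible because the groups share no mouse numbers. Changes of keratins close to the lowest intensities cannot be resolved.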
